A study of Mus musculus with 2 samples.

Results

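The PARP family genes encode enzymes that transfer ADP-ribose from NAD to proteins. The set described here has 10 named members, Parp1, Parp2, Parp3, Parp6, Parp8, Parp9, Parp10, Parp11, Parp12 and Parp14, and every probe set annotated to exactly 1 of them was taken. This gave 18 probe sets of 9 genes, out of 45037 probe sets and 18193 named genes on the array. Parp10 had no probe set of its own. The members were chosen by gene family at a time when the ratios of these arrays were known, so every difference between genotypes below is a description and was not tested.

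Expression was measured on 2 arrays, 1 of Miz1 knockout and 1 of wild-type thymocytes on the C57BL/6 background. The cells were lineage-negative, CD44-negative and CD25-positive, the phenotype of DN3 cells, which are T cell precursors that rearrange the T cell receptor beta gene. The knockout mice carry Miz1-delta-POZ, in which the transcription factor Miz-1 (gene Zbtb17) lacks its POZ domain, its contact surface for partners. How the allele was deleted, in which cells, the age of the mice and any pooling of animals are not stated in the labels. The design asks how loss of Miz-1 activity alters the expression pattern of DN3 cells. With 1 array per genotype there is no error between animals.

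ADP-ribosylation is best known from DNA repair. PARP1 and PARP2 bind broken DNA, build chains of ADP-ribose on themselves and on chromatin, and so recruit repair proteins, and PARP3 acts with them at double-strand breaks. Several other members attach single ADP-ribose units. Interferon induces the genes of some members as part of the antiviral response, among them Parp9, Parp10, Parp11, Parp12 and Parp14. Parp6 and Parp8 belong to neither group and are less studied.

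Signals are linear probe set intensities in arbitrary units. Each gene is represented by the probe set that was brightest on average, and is called measured if its mean was above a floor of 394, the median of all values. Values under the floor were raised to it before a ratio was taken, so a fold with 1 array under the floor is a lower bound. A measured gene of this kind passed the floor through its brighter array alone, so the direction of its difference was fixed. A difference counted as called at 2-fold. Of 10770 measured genes, 7.23% were called higher in the knockout and 5.65% lower, and their median log2 ratio was 0.00. Log2 ratios of different probe sets of the same gene spread with an SD of 0.57 (root mean square, 4514 genes).

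Genes that define the sorted cells were present. The DN3 genes Ptcra, Rag1, Notch1, Il2ra and Bcl11b were above the floor on both arrays, and Cd44 was below it by its mean. Zbtb17 read 1361 in knockout cells against 3042 in wild-type cells by its brighter probe set and 609.8 against 47.6 by the other, and since it is not known whether these probes lie in the deleted part, they do not check the label. The sexes of the mice differed: Xist read 55300 in knockout cells against 422.9 in wild-type cells. The members lie on chromosomes 1, 6, 9, 13, 14 and 16, and for all of them sex and genotype cannot be told apart. In bulk RNA of this kind, a changed share of some cells and a changed level per cell cannot be told apart either.

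All 9 members with a probe set were measured. Of these, 5 were called higher in the knockout, Parp3, Parp6, Parp9, Parp12 and Parp14, where 7.23% of all measured genes were, and none was called lower. Counted by probe set, 15 of 18 were measured, 11 of them higher in the knockout and 4 lower. Parp6 and the dimmer Parp14 probe set counted as measured through their knockout values alone, so they had to be higher. The 4 probe sets lower in the knockout all belonged to Parp1 and Parp2.

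**Figure D1:**
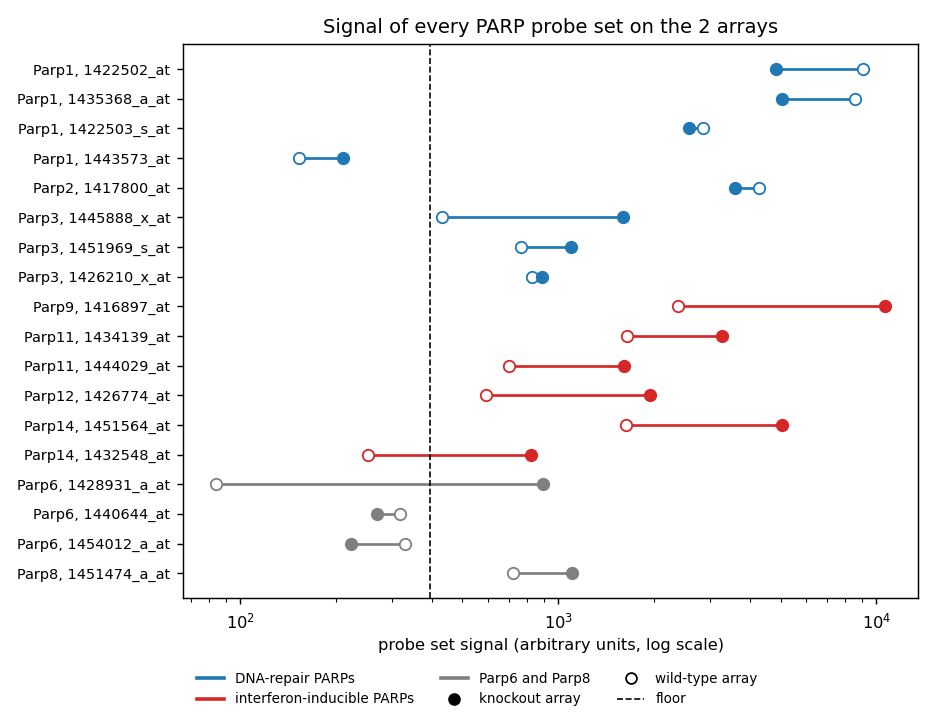
Signal of each of the 18 PARP probe sets (horizontal axis, arbitrary units, log scale) on the knockout array (filled circles) and the wild-type array (open circles), with a dashed line at the floor of 394. All 6 probe sets of the interferon-inducible genes have the knockout to the right of the wild type, and the 3 measured Parp1 probe sets and that of Parp2 have it to the left.

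The 4 interferon-inducible members with a probe set of their own were all higher in the knockout. Parp9, which works in a complex with the ubiquitin ligase DTX3L, read 10652 in knockout cells against 2377 in wild-type cells by its only probe set (1416897_at). This is 4.48-fold, a log2 ratio of 2.16, and the rank was 43 from the top among 10770 measured genes. Parp14, a large protein that reads ADP-ribose through macrodomains as well as writing it, read 5050 and 1631 by its brighter probe set (1451564_at), 3.10-fold higher with a rank of 140. Its second probe set (1432548_at) read 819.7 and 252.7, at least 2.08-fold higher, since the wild-type value lay under the floor. Both probe sets were brighter in the knockout.

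Parp12, an antiviral member with zinc fingers, read 1940 in knockout cells against 594.8 in wild-type cells (1426774_at). It was 3.26-fold higher, with a log2 ratio of 1.71 and a rank of 116. Parp11, which is known to act on the type I interferon receptor, read 3282 and 1645 by its brighter probe set (1434139_at). That is 1.995-fold, just under the limit, so Parp11 was not called. Its dimmer probe set (1444029_at) read 1610 and 698.2, which is 2.31-fold and past the limit. The log2 ratios of the 2 probe sets, 0.997 and 1.21, lay closer together than the SD of 0.57 between probe sets of a gene.

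Of the 4 interferon-inducible genes with a probe set of their own, 3 were called higher, with a median log2 ratio of 1.67 and a range from 0.997 to 2.16. All 6 probe sets of these genes were higher in the knockout, and 5 were at least 2-fold higher. The dimmer Parp14 probe set counted as measured through its knockout value alone, so its direction was fixed. None of the 6 carries a suffix for shared sequence in its name. For Parp10, the single probe set that lists it (1452178_at) lists Plec as well. It read 2821 and 1492, 1.89-fold higher, a signal that cannot be assigned to either gene. The 3 probe sets annotated to Plec alone, a gene for a cytoskeletal linker, had log2 ratios of 0.49, -0.10 and -0.35, the last with a mean under the floor.

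The DNA-repair members did not share a direction. Parp1, the main sensor of strand breaks, read 4828 in knockout cells against 9053 in wild-type cells by its brightest probe set (1422502_at), 1.88-fold lower with a log2 ratio of -0.91 and a rank of 813 from the bottom. A second probe set (1435368_a_at) read 5039 and 8558, a log2 ratio of -0.76. The third (1422503_s_at), which shares its source transcript with the brightest, read 2573 and 2850, a log2 ratio of -0.15. The fourth (1443573_at) was under the floor on both arrays. All 3 measured probe sets were dimmer in the knockout, by amounts that spread with an SD of 0.40, and none reached 2-fold.

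Parp2, which can stand in for PARP1 at single-strand breaks, read 3600 and 4270 (1417800_at). Its log2 ratio of -0.25 was smaller than the SD between probe sets of a gene. Parp3 went the other way by its brightest probe set (1445888_x_at), with 1600 in knockout against 431.0 in wild-type cells, 3.71-fold higher and a rank of 74 from the top. Its other probe sets did not show a difference of that size. They read 1099 against 765.1 (1451969_s_at) and 890.4 against 829.2 (1426210_x_at), log2 ratios of 0.52 and 0.10. The 2 dimmer ones share a source transcript that the brightest does not, and the suffixes of all 3 names mark sequence in common with other transcripts. The SD of 0.94 between them was the widest among the 4 members with more than 1 measured probe set, and the Parp3 call rests on 1 of 3 probe sets. That probe set was the dimmest of the 3 on the wild-type array, so only its knockout value made it the brightest on average.

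Together the 3 DNA-repair genes had a median log2 ratio of -0.25, with a range from -0.91 to 1.89. It was 1.91 below the median of the interferon-inducible genes, a 3.77-fold difference between the medians of the knockout over wild-type ratio. The ranges overlapped because of Parp3, whose ratio lay between those of Parp12 and Parp9. With Parp3 left out, a choice made after its values were seen, Parp1 and Parp2 had a median of -0.58, the difference was 2.24 and the ranges no longer overlapped.

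**Figure D2:**
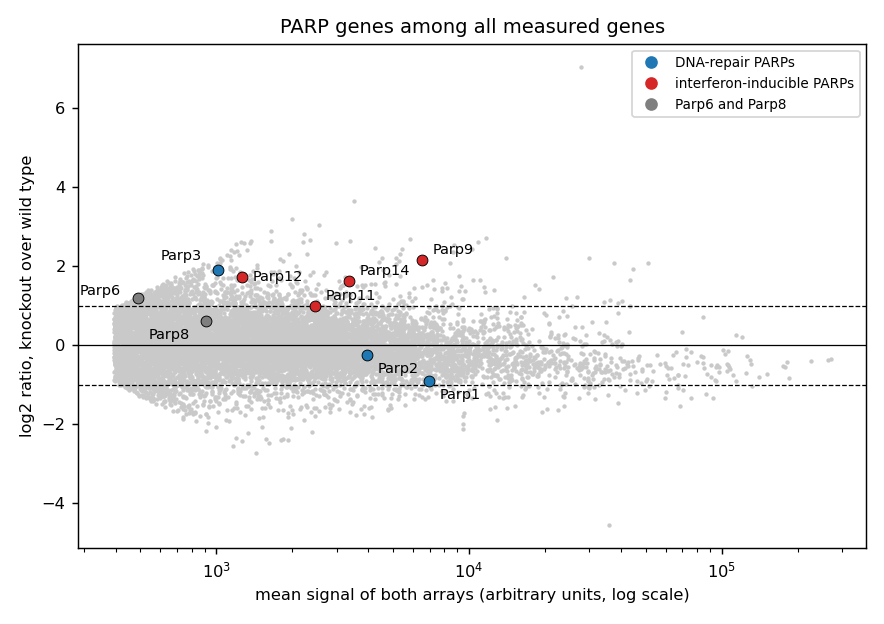
Log2 ratio of knockout over wild type against the mean signal of both arrays (arbitrary units, log scale) for 10770 measured genes in grey, with the 9 PARP genes coloured by class and dashed lines at 2-fold. Parp9, Parp12, Parp14 and Parp3 lie above the upper line at log2 ratios from 1.63 to 2.16, Parp11 lies on it at 0.997, and Parp1 lies just above the lower line at -0.91.

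Parp6 and Parp8, which attach single ADP-ribose units, were read near the floor. Parp6 read 893.9 in knockout cells against 84.2 in wild-type cells by its brightest probe set (1428931_a_at), at least 2.27-fold higher. Its other probe sets (1440644_at and 1454012_a_at) were under the floor on both arrays and slightly dimmer in the knockout, at 269.9 against 317.1 and 223.9 against 329.3. The Parp6 call thus rests on 1 of 3 probe sets. Parp8 read 1106 and 719.3 (1451474_a_at), a log2 ratio of 0.62 that did not reach 2-fold.

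Promoters were taken from RefSeq (build GRCm38.p6, 250 bases before to 50 after each start) because the interferon-inducible members were higher together, and interferon acts through STAT and IRF proteins on a short DNA motif, the interferon-stimulated response element (ISRE). Of the 10 members 7 were matched, with 8 starts; Parp9, Parp10 and Parp14 were not matched. The ISRE core was searched as GAAANNGAAA on both strands. Among 32851 promoters of that length 3.44% hold it. Of the 8 member promoters 1 did, the upstream start of Parp11, as TTTCGATTTC on the opposite strand, 44 to 35 bases before the start. Printed here are 3, those of Parp11 and Parp12 from the interferon-inducible class and that of Parp1 for contrast, with ISRE core matches in capitals.
Parp11, chr6:127446590-127446889, + strand: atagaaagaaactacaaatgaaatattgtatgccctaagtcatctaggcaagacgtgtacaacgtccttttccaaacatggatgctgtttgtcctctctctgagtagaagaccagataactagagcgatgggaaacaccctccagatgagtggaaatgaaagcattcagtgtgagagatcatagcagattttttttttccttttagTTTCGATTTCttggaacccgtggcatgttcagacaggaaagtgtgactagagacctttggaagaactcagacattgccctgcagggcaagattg
Parp12, chr6:39118300-39118599, - strand: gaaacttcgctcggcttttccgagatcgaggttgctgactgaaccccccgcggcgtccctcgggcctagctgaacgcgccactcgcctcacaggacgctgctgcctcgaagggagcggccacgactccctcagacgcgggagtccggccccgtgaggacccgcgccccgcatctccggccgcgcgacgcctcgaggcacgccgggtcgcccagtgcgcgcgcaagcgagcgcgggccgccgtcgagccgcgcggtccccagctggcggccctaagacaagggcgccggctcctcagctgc
Parp1, chr1:180568641-180568940, + strand: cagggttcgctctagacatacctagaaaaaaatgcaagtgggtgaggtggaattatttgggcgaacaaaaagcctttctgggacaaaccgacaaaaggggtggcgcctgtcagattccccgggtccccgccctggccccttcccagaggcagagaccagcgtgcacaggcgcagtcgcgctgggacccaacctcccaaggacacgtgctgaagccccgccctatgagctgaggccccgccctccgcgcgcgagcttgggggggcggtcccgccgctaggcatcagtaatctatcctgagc

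A second motif, the gamma-activated site TTCNNNGAA, was present in 8.30% of all promoters and in the same Parp11 window, 37 to 29 bases before the start, where it overlaps the ISRE core match. The E2F motifs TTTCGCGC and TTTGGCGC, found in 0.323% and 0.514% of all promoters, were in none of the 8 member windows. GC content of the member windows ranged from 42.0% at the Parp11 start with the match to 73.7% at Parp12, against a median of 52.7% for all promoters. A match is a stretch of letters and does not show binding, and a window without one says nothing about a factor acting elsewhere.

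The other genes of the family and of the pathway were read from lists chosen with results of these data known. Of 6 further family genes, Parp4, Tiparp, Parp16, Tnks, Tnks2 and Zc3hav1, all were measured, 1 was called higher and none lower, with a median log2 ratio of 0.36. Parp4, the member found in vault particles, read 987.1 in knockout cells against 277.9 in wild-type cells, at least 2.50-fold higher, while its second probe set was under the floor on both arrays. Its promoter holds 2 overlapping matches of the ISRE core, 150 to 135 bases before the start. This stretch is printed with 20 bases on either side, because Parp4 has the only other family promoter searched with a match. The promoter of Dtx3l, the gene of the PARP9 partner, was searched as well and held no match.
Parp4, from chr14:56575369-56575668, + strand: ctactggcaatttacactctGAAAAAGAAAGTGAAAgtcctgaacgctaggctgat

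Zc3hav1, which encodes the antiviral RNA-binding protein ZAP, an inactive relative of the enzymes that is itself interferon-inducible, read 11833 and 9297 at its brightest, a log2 ratio of 0.35. Tiparp, another interferon-inducible gene of the family, read 2132 and 2112. Neither gene is a listed member, so the median and range of the interferon-inducible class leave both out. The ratios of both were smaller than those of Parp9, Parp12 and Parp14, a difference that was not tested. The tankyrase genes Tnks and Tnks2 had log2 ratios of 0.37 and 0.52, and a dimmer Tnks probe set was at least 2.23-fold lower.

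Partners of PARP1 and PARP2 in single-strand break repair lay mostly on the Parp1 side. Of 13 listed genes 11 were measured, none was called in either direction, 10 had a negative log2 ratio, and the median was -0.54. Hpf1, the cofactor that directs PARP1 and PARP2 to serine residues, read 4912 in knockout cells against 9369 in wild-type cells, a log2 ratio of -0.93 beside the -0.91 of Parp1. Apex1, an endonuclease of base excision repair, read 9467 and 15945, although its 3 probe sets ranged from -0.96 to -0.07. The scaffold gene Xrcc1 and the polymerase gene Polb had log2 ratios of -0.29 and -0.07. The sign of some genes depended on the probe set. Dimmer Polb probe sets had -0.11, 0.15 and 0.56. Lig3 had -0.16 at its brightest, and its dimmer measured probe sets had 0.07 and at least 0.63.

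Of 9 genes that remove ADP-ribose or break down its remains, 7 were measured, 1 was called higher and none lower, with a median of -0.13. The called gene was Adprhl2, which frees serine residues of ADP-ribose, with 1143 in knockout against 559.8 in wild-type cells, 2.04-fold. Macrod1, a macrodomain hydrolase, read 1873 and 3702, 1.98-fold lower and just short of the limit. Parg, which degrades the chains, read 2140 and 2582. The genes of NAD synthesis and the sirtuins had no called member among 13 measured and a median of -0.01. Nmnat3 was just short of the limit, at 1.995-fold higher (1651 against 827.7). Slc25a51, the mitochondrial NAD carrier and the brightest of them, read 5220 and 4955, and its dimmer probe sets had log2 ratios of -0.54 and 0.82.

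Most interferon signalling genes were also higher in the knockout. Of 12 measured genes 6 were called higher, where 7.23% of all measured genes were, and none lower, with a median of 1.07. Usp18, a feedback inhibitor of the receptor, was 6.34-fold higher (4064 against 641.0), Irf9 3.05-fold, Irf7 2.98-fold, the interferon gamma receptor gene Ifngr1 2.77-fold (16848 against 6080), and Stat2 at least 2.33-fold higher. Dtx3l, the partner of PARP9, read 10607 and 3950, 2.69-fold higher, and its second probe set was 2.61-fold higher. The Stat2 call rests on 1 of 2 probe sets, since the dimmer one (600.6 against 361.2) was not called. The receptor gene Ifnar2 had a log2 ratio of -0.64 at its brightest and the feedback gene Socs1 -0.31, the 2 negative ratios among the measured genes. Ifnar1 had 0.77 at its brightest, but its dimmer probe set was lower in the knockout (317.0 against 715.5).

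**Figure D3:**
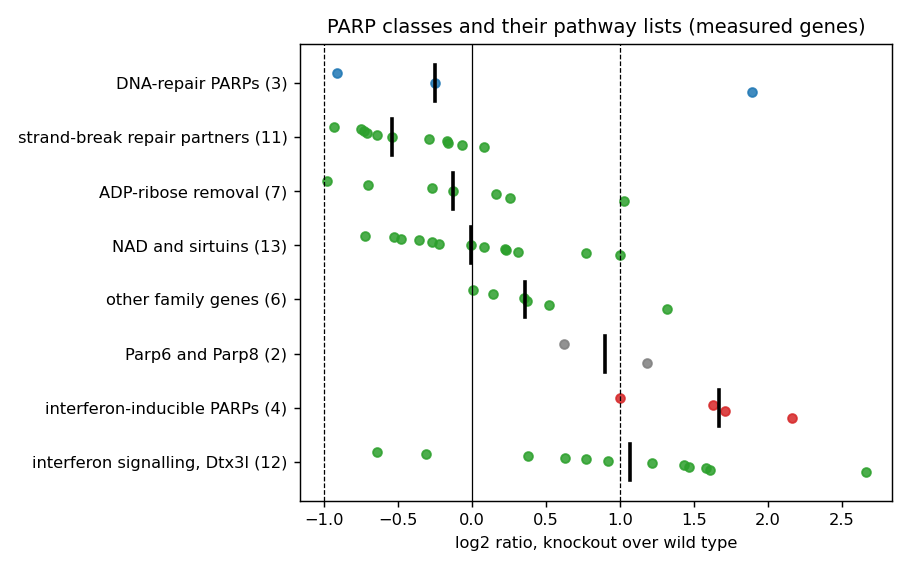
Log2 ratio of knockout over wild type for each measured gene of the PARP classes and of the pathway lists, with the number of measured genes in brackets, a black bar at each median and dashed lines at 2-fold. The interferon-inducible PARPs (median 1.67) and the interferon signalling genes (1.07) have medians past the upper line, and the strand-break repair partners (-0.54) lie between the lines.

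Several genes of the sorted cells themselves also read higher on the knockout array, while others were nearly level. Of 9 measured DN3 genes 8 had a positive log2 ratio and 2 were called higher, with a median of 0.62. Il2ra, which encodes the CD25 of the sort, was 4.61-fold higher (23018 against 4992), the Notch target Dtx1 5.09-fold higher (14456 against 2841), and Notch1 1.97-fold higher. Hes1, Ptcra, Rag2, Cd3e and Bcl11b had log2 ratios of 0.66, 0.62, 0.23, 0.08 and 0.02, and Rag1 was lower at -0.40. The part of the DN3 genes in the PARP values was not tested.

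Markers of other cells that a sort could contain were read beside these values. Of 10 myeloid markers 3 were measured, and 2 of these were called higher in the knockout, Lyz2 (2646 against 736.3) and Csf1r (1204 against 529.1). Adgre1, the third, read 482.4 against 498.5. The other Csf1r probe sets read 825.9 against 798.8 and 1017 against 107.3. The summed signal of the 10 was 6074 on the knockout array and 2929 on the wild-type array. Cd14, with a mean under the floor, read 505.2 against 86.0. Itgam, Fcgr3, Cd68, S100a8, S100a9 and Mpo were under the floor on both arrays. Of 9 dendritic cell markers only Cd74 was measured, at 619.1 against 667.5, and their summed signal was 2407 against 3361. Of 7 B cell markers 3 were measured, none was called, and their sums were 4914 and 2700. Of the 6 NK and 6 mature T cell markers with a probe set, 4 each were measured. Nkg7 (4655 against 1942) was called higher and Prf1 had a log2 ratio of 0.86, while Klrd1 and Gzma had -0.79 and -0.50. The NK sums were 21120 and 23314, most of it from Gzma (13881 against 19641). Ncr1, with a mean under the floor, read 554.0 against 43.7, and Eomes was under the floor on both arrays. Klf2 was called higher (at least 2.67-fold) while the other 3 measured mature T cell markers, Itgb7, Cd5 and Cd6, had log2 ratios from -0.79 to -0.59, and the sums were 3792 and 4594. The part of such cells in the PARP values was not tested.

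A trio of these genes are neighbours on the chromosome. In the RefSeq order Parp14, Dtx3l and Parp9 are consecutive protein-coding genes on chromosome 16. All 5 of their probe sets were past 2-fold on the high side, the dimmer Parp14 one measured through its knockout value alone. Of the 4 protein-coding genes on either side, 5 of 8 were measured, none was called higher, and Pdia5 was called lower, at least 2.54-fold by 127.4 against 999.6. The adjoining genes on either side, Hspbap1 and Kpna1, had log2 ratios of 0.67 and 0.84 by their brightest probe sets. The other measured probe sets had log2 ratios of 0.57 for Hspbap1 and of 0.95 and -0.29 for Kpna1. The called genes within this stretch were thus the trio on the high side and Pdia5 on the low side.

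**Figure D4:**
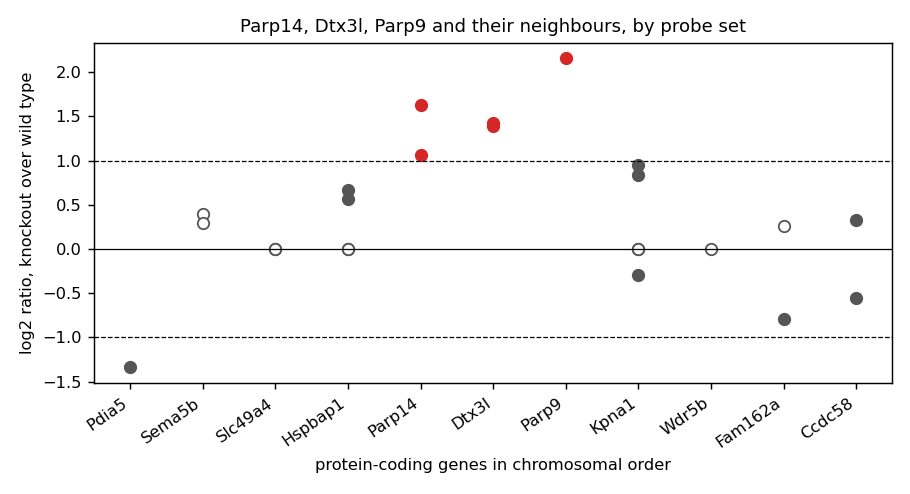
Log2 ratio of knockout over wild type of every probe set of Parp14, Dtx3l and Parp9 (red) and of 4 protein-coding genes on either side (grey), in chromosomal order; open circles are probe sets with a mean under the floor, and dashed lines mark 2-fold. The 5 red points lie between 1.06 and 2.16, and no grey point passes the upper line.

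Elsewhere the neighbours of members did not follow a single pattern. Over all 9 genes there were 17 adjacent protein-coding genes that are no members, among them Dtx3l, Hspbap1 and Kpna1 described above. Of the 10 measured, 4 were called higher and 2 lower, where 7.23% and 5.65% of all measured genes were. Besides Dtx3l, those called higher were Tbxas1 and Kdm7a on the 2 sides of Parp12 (at least 2.74-fold and 2.74-fold) and Ccnd2 next to Parp11 (2.67-fold). The second measured probe set of Kdm7a had a log2 ratio of -0.17, and those of Ccnd2 ranged from 0.06 to 1.41. The genes called lower adjoin the members whose calls rest on 1 of 3 probe sets: Rrp9 beside Parp3, at least 5.09-fold lower, and Pkm beside Parp6, 2.49-fold lower.

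The settings of the processing moved Parp3 and Parp6 most. The log2 ratio ranged from 2.16 to 2.26 for Parp9, from 1.60 to 1.71 for Parp12 and from 1.34 to 1.64 for Parp14 over 8 settings, and from -0.91 to -0.61 for Parp1. Parp11 ranged from 0.97 to 1.10 and was called only with the mean of its probe sets. Parp3 was at 0.84 with the mean of its probe sets and lost its call. Without probe sets of shared sequence 6 genes were still measured, 3 of them called higher, Parp9, Parp12 and Parp14.

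**Figure D5:**
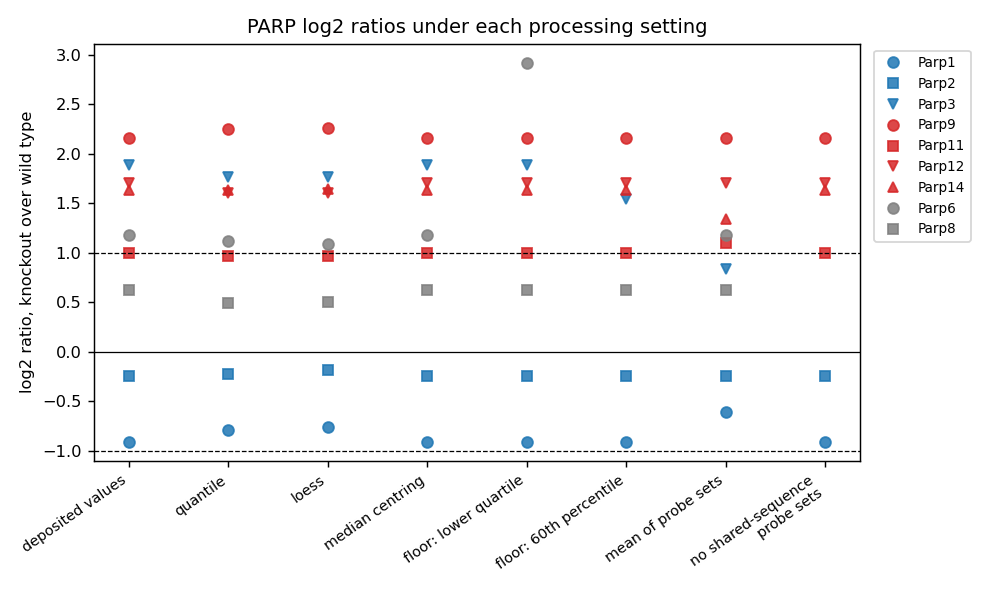
Log2 ratio of knockout over wild type of each PARP gene under the deposited values and 7 alternative settings, coloured by class as in the legend, with dashed lines at 2-fold; a missing point means that the gene was not measured or was left out under that setting. Parp9, Parp12 and Parp14 stay at 1.34 or above in all 8, Parp1 and Parp2 stay below 0, and Parp6 moves from 1.18 to 2.92 with the lower floor.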

How the data were processed

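Total RNA of sorted cells was amplified with biotin labelling and hybridised to 1 array per genotype, per the labels' protocols. The values deposited by the authors are linear signal intensities per probe set, and GCOS 1.4 is named in the submitters' processing notes; no settings are recorded in the labels. Both arrays had a mean of 1000 after trimming 2% at either end, so they were scaled before deposit. Of 45101 probe sets, 64 controls were left out. The 3' over 5' ratio of Gapdh was 0.645 on the knockout array and 0.641 on the wild-type array, and that of beta-actin 1.60 and 2.06.

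Gene names came from the platform annotation, with symbols updated by gene identifier through RefSeq (GRCm38.p6), which was otherwise used for gene order and promoters. Excluding controls, 34945 had 1 symbol, 932 several and 9160 none. The floor, the 2-fold limit and one probe set per gene are as described in the results, computed in Python 3.11.15 (pandas 2.3.3) and tested on simulated data. Loess used statsmodels 0.14.6 with a fraction of 0.3. With 1 array per genotype no test was possible. The number of arrays limits the precision.

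Members, classes and lists were chosen with earlier results of these data known. The text names every member with all its probe sets, the called genes of the pathway lists and the brightest gene of a list without one; further genes, markers and neighbours were chosen after their values were seen. Alternatives were quantile, loess and median normalization, floors at the lower quartile and the 60th percentile, the mean of probe sets, and leaving out probe sets of shared sequence (suffixes a, s and x), plus one added later, leaving out Parp3.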

Additional observations from a re-analysis of the deposited data

How the results depend on the processing

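The median of the interferon-inducible PARPs stayed between 1.52 and 1.67 and that of the DNA-repair PARPs between -0.58 and -0.19 in the 8 alternatives, including the one without Parp3 that was added after seeing the data, and their difference stayed between 1.77 and 2.24. No member was called lower in any of them. The number of members called higher was 5 in the deposited values and 3 without probe sets of shared sequence, where Parp3 and Parp8 had no probe set left and the remaining Parp6 probe set (269.9 against 317.1) was under the floor; the suffix a, carried by the called Parp6 probe set and by that of Parp8, marks transcripts of 1 gene, so this setting is strict for them. It was 4 with the floor at the 60th percentile, where Parp6 was not measured, and 4 without Parp3. Over all genes, 779 were called higher and 608 lower. With the floor at the lower quartile, 119, these became 2682 and 2233, and with the floor at the 60th percentile, 550, the number higher was 504. Of 59 values of single members under an alternative, 57 moved by less than the SD of 0.57 between probe sets of a gene. The other 2 were Parp3 at 0.84 with the mean of probe sets and Parp6 at 2.92 with the lower floor. Many of the 59 could not move, so the count does not measure robustness. Median centring changed no ratio, since the median was already 0.00. A floor does not touch a gene above it on both arrays, and the mean of probe sets does not touch a gene with a single one. Quantile and loess normalization changed no call of a member. No paired analysis was possible because each genotype has 1 array.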
